A study of Mus musculus with 6 samples.

Results

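The voltage-gated sodium and calcium channel genes were taken as the rows of the count table whose symbols matched the names of the sodium channel alpha and beta subunits (Scn genes ending in a or b) and of the calcium channel alpha1, alpha2delta, beta and gamma subunits (Cacna1, Cacna2d, Cacnb and Cacng). There were 40 such rows of 36291, and 20 encode pore-forming subunits and 20 auxiliary subunits. The RNA came from fluorescent cells sorted from the telencephalon of Swiss mouse embryos at stage E14.5, and 6 libraries were made, 3 labelled KO and 3 labelled WT. The KO group is a knockout of Sip1, the gene now called Zeb2, in the lineage of Nkx2-1, a transcription factor of the ventral forebrain. Cells of both groups carried eGFP and were targeted by Nkx2-1-iCre, so the control libraries come from Cre-expressing embryos too. The labels do not give the Zeb2 alleles, the part deleted, or whether embryos were pooled. The driver directs the sort to cells in which Nkx2-1-iCre had acted. Those are largely cells of the medial ganglionic eminence (MGE), where cortical interneurons are born. Markers of other cell types were present too, with levels given below. Each genotype has 1 library with each of the numbers K77, K79 and K80, and values by library are given in that order.

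Voltage-gated sodium channels carry the upstroke of the action potential. A single large alpha subunit forms the pore, and beta subunits, which are small proteins with an immunoglobulin domain, alter gating and take part in cell adhesion. Voltage-gated calcium channels couple depolarisation to secretion, transcription and, in migrating interneurons, to calcium transients that bear on movement. Their alpha1 subunits form the pore, the intracellular beta and the extracellular alpha2delta subunits govern how much channel reaches the membrane, and several gamma subunits act as partners of AMPA-type glutamate receptors rather than of calcium channels.

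Reads assigned to genes numbered 8323531 to 11069437 per library, and levels are given as CPM, the count relative to the library total, after scaling to a common library size. KO and WT were compared with the quasi-likelihood test of edgeR on raw counts, adjusted over all 13835 genes that passed a filter on low counts, and a gene is called at an adjusted p under 0.05. Log2 fold changes are KO over WT with their standard error (SE). Libraries that share a K number tended to depart from their group means together. A further fit therefore took the K number as a block, and this blocked fit is quoted where its call differs. Zeb2 stood at 308 ± 35.6 CPM in KO and 662 ± 133 CPM in WT libraries (SD, n = 3 each), or -1.11 on the log2 scale (SE 0.138, edgeR adjusted p = 0.00116). WT K79 was the single library with a high count of the X-inactivation transcript Xist, 26109 counts against 13 to 28 in the other libraries.

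Of the 40 genes, 32 passed the filter, 15 pore-forming and 17 auxiliary. Their mean levels ran from 0.861 CPM to 253 CPM. The other 8 had 0 to 22 counts summed over all 6 libraries, and none of them was tested. Scn4a, the sodium channel alpha subunit of skeletal muscle, had 0 counts in every library, and a limit of 3 counts allows up to 0.361 CPM in the shallowest library, KO K77, for counting error only. The muscle calcium channel gene Cacna1s had 0, 5 and 3 counts in KO and 0, 3 and 3 counts in WT libraries. Of 7 listed muscle markers, Actc1, Tnnt2 and Myog were at 0 in every library. The others were not, with 20 to 46 counts per library for Ttn, 4 to 14 for Acta1, 0 to 13 for Myh3 and 0 to 1 for Myh8. Scn10a, a sodium channel gene of pain-sensing neurons, had 0 counts in each KO library and 1, 3 and 1 counts in WT libraries, and Scn7a, the gene of the sodium-sensing channel Nax, had 1, 2 and 0 counts in KO and 0 in each WT library. Those counts lie at or below the limit of 3, so no fold is given for them. Cacna1f, whose product is the retinal L-type channel, Cacna2d4, Cacng6 and Scn4b made up the rest. Of these, Cacna2d4 had 5, 4 and 7 counts in KO and 2, 3 and 1 counts in WT libraries.

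Channel genes moved in both directions between the genotypes, and by less than 2-fold in every called case. In the fit without the block edgeR called 4 of the 32 tested genes, a share of 12.5% beside 6.27% of all genes tested. The sodium channel gene Scn9a and the calcium channel gene Cacna1e rose, and the calcium channel gene Cacna1g and the beta subunit gene Cacnb4 fell. Each of these 4 calls held without WT K79, the library with the high Xist count. Among pore-forming subunits 2 rose, 1 fell and 12 had no call, and among auxiliary subunits 0 rose, 1 fell and 16 had no call, where 3.64% of all tested genes rose and 2.62% fell. In the blocked fit 8 of the 32 were called, or 25% beside 10.6% of all genes, with 3 pore-forming genes higher and 1 lower and 2 auxiliary genes higher and 2 lower. That fit called 6.13% of all genes higher and 4.45% lower. The 4 genes that joined were Cacna1c, Cacna2d2 and Cacna2d3 on the higher side and Cacng2 on the lower. The median log2 fold change was 0.18 over the pore-forming and -0.07 over the auxiliary genes, against -0.01 over all tested genes, and the difference between the subunit kinds was not tested. KO and WT libraries did not overlap for 11 of the 32 genes, or 34.4%, beside 23.2% of all tested genes. KO was higher in 5 of these 11 and lower in 6, beside 11.8% and 11.4% of all tested genes.

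**Figure D1:**
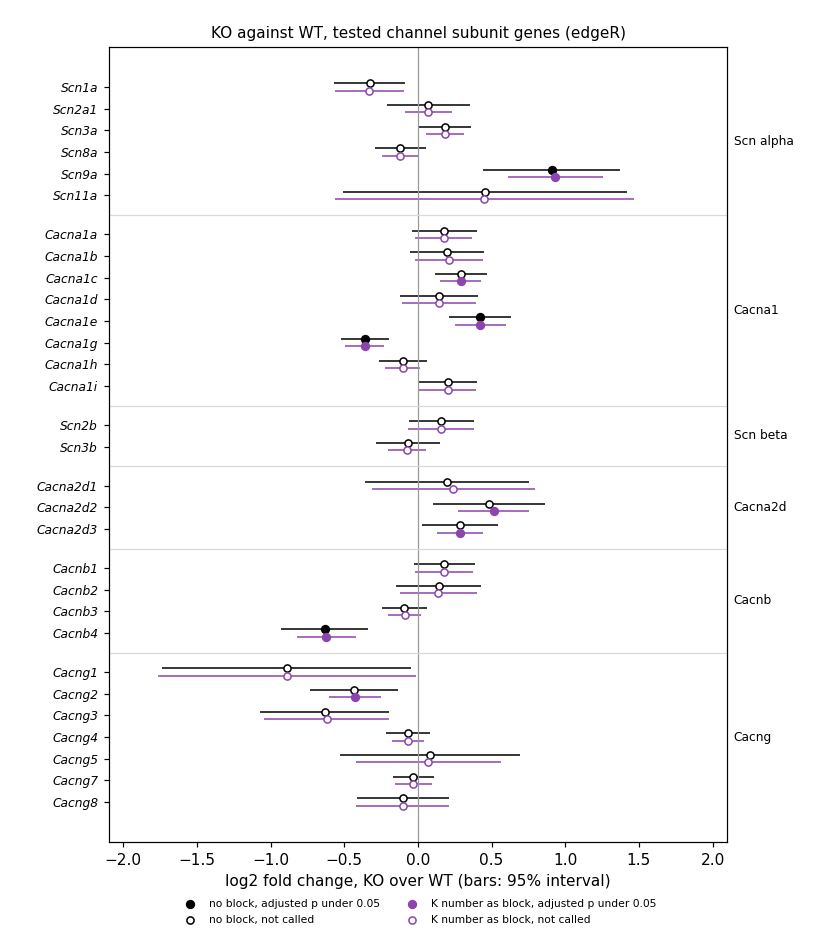
Log2 fold change of KO over WT for the tested channel genes reported here, grouped by subunit class down the page, with 95% intervals as bars; black is the fit without a block and purple the fit with the K number as a block, and filled points are called at an adjusted p under 0.05. Scn9a lies farthest to the right of the called genes at 0.91 and Cacnb4 farthest to the left at -0.63, and the intervals of Scn11a and Cacng1 are the widest in both fits.

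The labels do not tie the libraries to separate embryos. The p-values therefore reflect only how these 6 libraries scatter, some of which may be technical. In bulk RNA, fewer cells of a type and less RNA per cell cannot be told apart, and this holds for every difference below.

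Scn9a encodes Nav1.7, a sodium channel known best from peripheral sensory neurons, where it amplifies small depolarisations. Its level was 33.5, 39.6 and 36.4 CPM in KO libraries, against 11.8, 24.4 and 21.9 CPM in WT libraries. Every KO library lay above every WT library, and WT K77 was the lowest of the 6. Means were 36.5 ± 3.02 CPM in KO and 19.4 ± 6.68 CPM in WT (SD, n = 3 each), a 1.87-fold rise, 0.91 on the log2 scale (SE 0.207, edgeR adjusted p = 0.03, blocked 0.00294). Within K77, K79 and K80 the log2 ratio was 1.51, 0.70 and 0.73. The call was lost without KO K79 (adjusted p = 0.132) or KO K80 (0.113). It was also lost without both K79 libraries (0.0597). The annotated antisense gene Gm13629 shares exonic sequence with Scn9a and its own row held at most 1 count per library; the sources used here do not say whether counting used strand, so antisense reads may be among the Scn9a counts.

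Zeb2 binds DNA at E-boxes of the form CACCTG, read as CAGGTG on the other strand, so the windows from 250 bases before to 50 bases after annotated start sites were searched for these letters on both strands (RefSeq, GRCm38.p6, a later build than the mm9 of the counts). Of the 40 genes 30 had a window, 6 of them with at least 1 match, and 17.1% of their 41 windows held the motif beside 20.2% of all 32851 windows. Of the 8 genes called in either fit, Cacna1g had no window and was not searched. Scn9a had a match before its start site, and Cacna1c had one after 1 of its several start sites. The stretch around the Scn9a match is printed because that gene had the largest called change, beside that of Scn2b, a gene that was not called, to show that the same letters occur in both. The first stretch lies at chr2:66635137-66635212 on the minus strand, and its motif begins 215 bases before the start site. The second stretch lies at chr9:45117715-45117790 on the plus strand, and its motif begins 126 bases before the start site. Capitals mark the motif, and each line reads 5′ to 3′.
Scn9a: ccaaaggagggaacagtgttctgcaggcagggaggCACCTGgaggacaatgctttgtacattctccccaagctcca
Scn2b: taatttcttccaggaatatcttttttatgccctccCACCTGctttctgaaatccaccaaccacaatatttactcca
These matches are a description of the letters, and binding was not measured here.

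The other sodium channel alpha genes described here gave no call in either fit. Scn3a encodes Nav1.3, the main sodium channel alpha subunit of embryonic brain, and had 257, 273 and 276 CPM in KO and 210.1, 236 and 264 CPM in WT libraries. The groups overlapped, since WT K80 lay above KO K77, and the log2 fold change was 0.18 (SE 0.0813, edgeR adjusted p = 0.274, blocked 0.0735). Scn8a encodes Nav1.6, the channel that comes to dominate at the axon initial segment of mature neurons. It had 103, 86.5 and 98.0 CPM in KO and 109, 97.9 and 105 CPM in WT libraries, which overlapped (-0.12, SE 0.077, edgeR adjusted p = 0.476). Scn2a1, the row for the gene of Nav1.2, stood at 36.7, 46.6 and 44.9 CPM in KO and 33.7, 45.4 and 43.0 CPM in WT libraries. Its groups overlapped almost fully and its 95% interval ran from -0.21 to 0.35.

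Scn1a encodes Nav1.1, the sodium channel on which fast-spiking interneurons depend after birth. It was chosen for mention after its values were seen. KO libraries held 33.9, 28.8 and 27.6 CPM and WT libraries 35.5, 35.5 and 41.9 CPM, without overlap, but the difference of -0.33 (SE 0.107) was not called, with an edgeR adjusted p of 0.118 and 0.0829 in the blocked fit. Scn11a rested on 4 to 13 counts per library and its interval spanned 0.

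Levels of different genes were set side by side per kilobase of exon (CPM per kb), with exon lengths from GENCODE M21. Exceptions were the choice of the 3 most abundant genes of each class, made by mean CPM, and the class sums in CPM given below. Scn3a led the alpha class at 27.7 CPM per kb in KO and 24.4 in WT libraries on average, followed by Scn8a at 7.76 in KO and 8.43 in WT. Scn2a1 averaged 4.71 CPM per kb in KO and 4.48 in WT libraries. In KO libraries Scn9a stood at 3.35, 3.95 and 3.63 CPM per kb and Scn1a at 3.98, 3.38 and 3.23, ranges that overlap, so their order there is not set. In WT libraries Scn9a stood at 1.17, 2.43 and 2.19 CPM per kb, below each WT value of Scn1a, which were 4.17, 4.16 and 4.91. As a share of the summed alpha level per kb, Scn9a made up 7.55 ± 0.506% in KO and 4.31 ± 1.28% in WT libraries (SD, n = 3 each), while Scn3a made up 57.5 ± 0.754% in KO and 55.1 ± 1.40% in WT. Scn1a, Scn2a1, Scn3a, Scn7a and Scn9a are all on chromosome 2, and the differences of the 4 tested ones did not share a sign.

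**Figure D2:**
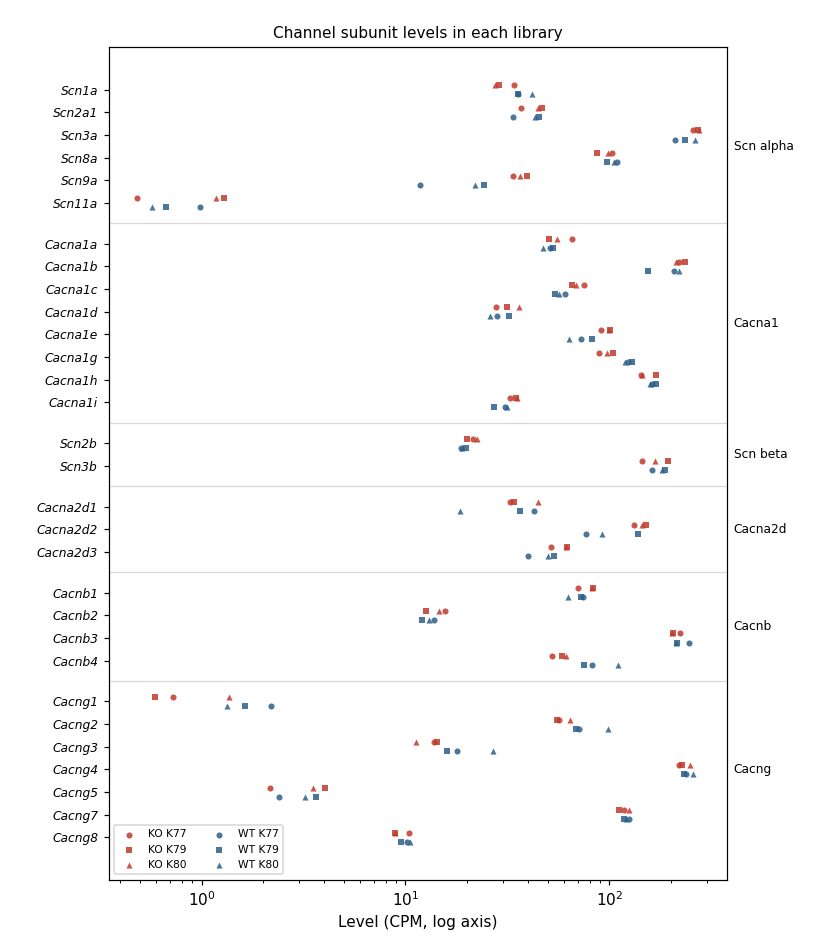
Level of the tested channel genes reported here in every library, in CPM on a log axis, with KO in red above WT in blue for each gene and the marker shape giving the K number. Scn9a and Cacna1e show each KO point to the right of each WT point, Cacna1g and Cacnb4 the reverse, and most other genes have interleaved points.

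The sodium channel beta genes Scn3b and Scn2b were not called in either fit. Scn3b, which encodes the beta3 subunit typical of developing brain, was the more abundant of the pair. It had 145, 194 and 168 CPM in KO and 163, 187 and 182 CPM in WT libraries, with overlap and a log2 change of -0.07 (SE 0.0978, edgeR adjusted p = 0.792). It accounted for 87.0 ± 2.08% of the summed beta level per kb in KO and 87.7 ± 0.362% in WT libraries. Scn2b, whose beta2 subunit is linked covalently to alpha subunits, had 21.4, 20.1 and 22.4 CPM in KO and 18.6, 19.8 and 18.9 CPM in WT libraries. These groups did not overlap, yet the difference of 0.16 (SE 0.0984) had an adjusted p of 0.461 in edgeR.

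Among the pore-forming calcium channel genes, Cacna1e rose and Cacna1g fell in both fits. Cacna1e encodes the R-type channel Cav2.3, found at dendrites and nerve terminals. Its level was 90.7, 101 and 99.4 CPM in KO libraries, against 72.5, 82.1 and 63.5 CPM in WT libraries. The KO libraries were tightly grouped and all above WT. The means of 97.1 ± 5.59 CPM in KO and 72.7 ± 9.28 CPM in WT (SD, n = 3 each) gave a 1.34-fold rise and a log2 change of 0.42 (SE 0.0942, edgeR adjusted p = 0.0283, blocked 0.00747). Within K77, K79 and K80 the log2 ratio was 0.32, 0.30 and 0.65. Leaving out KO K79, KO K80, WT K77 or WT K80 ended the call, with adjusted p values of 0.128, 0.126, 0.0893 and 0.0664.

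Cacna1g encodes the T-type channel Cav3.1, which opens at low voltage and favours burst firing. Its level was 88.5, 105 and 97.1 CPM in KO libraries, against 123, 129.7 and 119.8 CPM in WT libraries. No KO library reached the lowest WT library. Means were 96.8 ± 8.11 CPM in KO and 124 ± 4.99 CPM in WT (SD, n = 3 each), 1.28-fold lower in KO, with a log2 change of -0.36 (SE 0.0723, edgeR adjusted p = 0.0162, blocked 0.00412). Ratios within K77, K79 and K80 were -0.48, -0.31 and -0.30 on the log2 scale. The adjusted p was 0.0744 without KO K80 and 0.0513 without WT K77.

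The other T-type genes were not called. Cacna1h, which encodes Cav3.2, had 143, 168 and 145 CPM in KO and 162, 169.9 and 158 CPM in WT libraries, with overlap and a log2 change of -0.10 (SE 0.0716, edgeR adjusted p = 0.521). Cacna1i, which encodes Cav3.3, lay slightly higher in KO at 0.20 without overlap, and its edgeR adjusted p was 0.271 (blocked 0.2).

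Cacna1c encodes Cav1.2, the L-type channel that couples activity to gene expression in neurons. It had 75.2, 65.8 and 68.4 CPM in KO libraries and 60.4, 54.0 and 56.7 CPM in WT libraries, and the groups did not overlap. The log2 fold change was 0.29 (SE 0.0786, edgeR adjusted p = 0.0603) and the blocked fit called it (0.29, SE 0.0616, adjusted p = 0.0163). Its log2 ratios of 0.32, 0.28 and 0.27 within K77, K79 and K80 were close to one another. The related L-type gene Cacna1d had overlapping groups and was not called, at 0.14 (SE 0.118).

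Cacna1b encodes Cav2.2, the N-type channel of presynaptic terminals, which has been tied to calcium entry in migrating neurons. It had 220.3, 234 and 213 CPM in KO and 208, 155 and 219 CPM in WT libraries. WT K79 was the lowest library and WT K80 lay among the KO values, and the log2 fold change of 0.20 (SE 0.112) was not called, with an edgeR adjusted p of 0.405. Cacna1a, whose product is the P/Q-type channel Cav2.1, also overlapped between groups, with a log2 fold change of 0.18 and a 95% interval from -0.04 to 0.40.

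Per kilobase of exon, Cacna1b, Cacna1h and Cacna1g were the leading alpha1 genes in KO and WT libraries. In KO libraries Cacna1b averaged 22.7, Cacna1h 18.5 and Cacna1g 11.4 CPM per kb. In WT libraries the averages were 19.8 for Cacna1b, 19.8 for Cacna1h and 14.6 for Cacna1g. The WT ranges of Cacna1b and Cacna1h overlapped, so their order there is not set. Cacna1g made up 14.6 ± 0.77% of the summed alpha1 level per kb in KO and 19.4 ± 1.13% in WT libraries (SD, n = 3 each), and Cacna1e made up 8.17 ± 0.342% in KO and 6.33 ± 0.909% in WT.

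**Figure D3:**
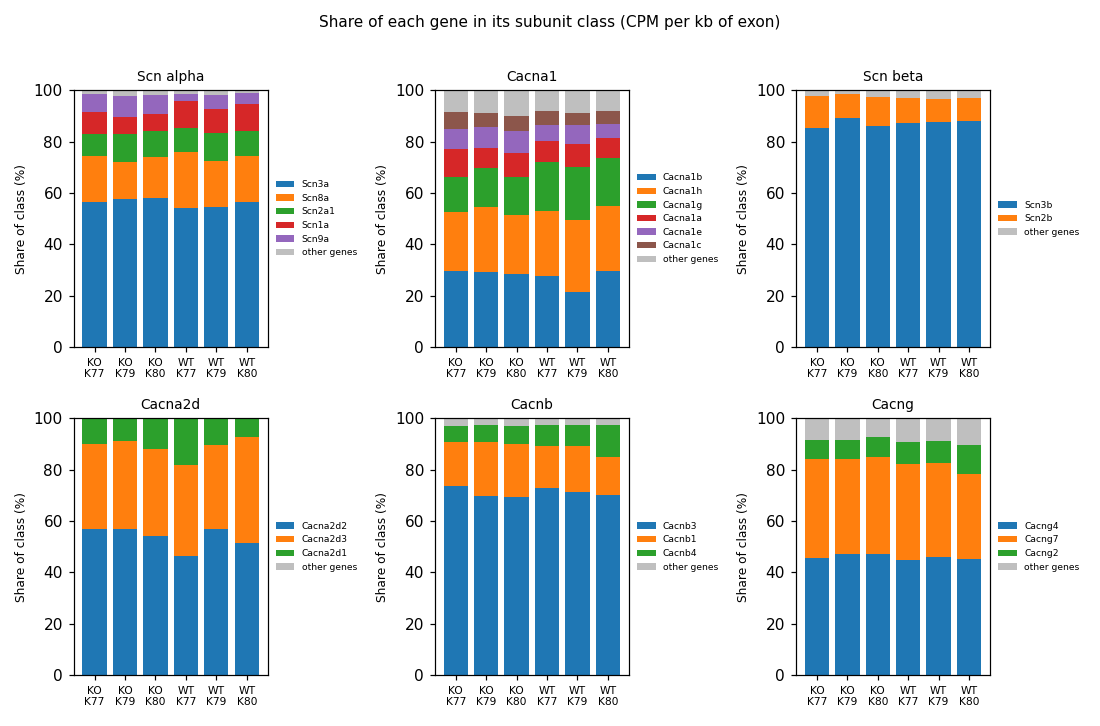
Stacked bars give, for each of the 6 subunit classes, the percentage of the class's summed level (CPM per kb of exon) held by each gene in every library, with genes under 5% of their class pooled as other genes and KO libraries left of WT libraries. Scn3a, Scn3b, Cacnb3 and Cacna2d2 are the largest parts of their classes on average over the 6 libraries, Cacng4 and Cacng7 together hold most of the gamma class, and the Scn9a part is wider in KO at 7.55 ± 0.506% than in WT at 4.31 ± 1.28%.

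Alpha2delta subunits are glycoproteins that help bring calcium channels to the membrane, and some of them bind gabapentin. The fit without the block gave 0 calls among 3 tested members, and the other tools gave 0 (DESeq2) and 0 (limma voom). An unadjusted edgeR p under 0.05 was seen for 2 of the 3, beside 2539 of all 13835 genes tested. The blocked fit called 2 higher. Cacna2d2, which encodes alpha2delta2, had 132, 151 and 145 CPM in KO libraries, against 76.5, 138 and 92.1 CPM in WT libraries. WT K79 stood among the KO libraries while WT K77 and WT K80 were well below them. The blocked log2 fold change was 0.51 (SE 0.106, edgeR adjusted p = 0.0141), and the unblocked one was 0.48 (SE 0.172, adjusted p = 0.153). The unblocked log2 fold change was 0.76 without WT K79 (adjusted p = 0.0013) and 0.31 without WT K77 (0.348). The other single libraries left out gave adjusted p values of 0.18 to 0.386. An annotated antisense gene, Gm17141, shares exonic sequence with Cacna2d2, so the strand caveat given for Scn9a applies here too.

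Cacna2d3, which encodes alpha2delta3, had 51.5, 61.7 and 61.6 CPM in KO and 40.0, 53.6 and 49.9 CPM in WT libraries. The pooled groups overlapped at KO K77, yet each KO library exceeded the WT library of its own number, with log2 ratios of 0.36, 0.20 and 0.30. The blocked log2 fold change was 0.29 (SE 0.0681, edgeR adjusted p = 0.0274), against an adjusted p of 0.22 without the block. Without WT K77 the unblocked log2 fold change was 0.17 (adjusted p = 0.499), against 0.28 with all 6 libraries. Cacna2d1, the gene of the alpha2delta1 subunit, had 32.7, 34.1 and 44.6 CPM in KO and 42.9, 36.5 and 18.6 CPM in WT libraries and was not called. WT K80 was the lowest of its 6 values, and without that library the log2 fold change was -0.089, against 0.20 with all 6.

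**Figure D4:**
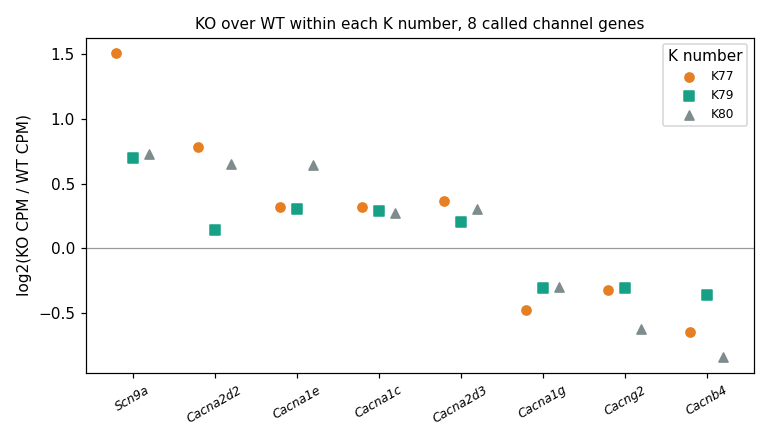
Log2 ratio of the KO to the WT level in CPM within each K number, for the 8 channel genes called in the blocked fit, ordered by its fold change. All 3 ratios of each gene fall on the same side of 0, which the choice of genes by that fit favours, so it is no separate support. Scn9a has the largest ratio at 1.51 in K77, and Cacna1c has the closest set at 0.32, 0.28 and 0.27.

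The beta subunit genes, whose cytoplasmic products bind the alpha1 subunit and set its gating and surface number, had 1 member that fell and 3 not called in either fit. Cacnb4 encodes the beta4 subunit, which is lost in the lethargic mouse. Its level was 52.2, 58.3 and 61.2 CPM in KO libraries, against 81.8, 75.1 and 109.9 CPM in WT libraries. WT K80 was far above the other libraries, and all KO values lay below all WT values. Means of 57.2 ± 4.60 CPM in KO and 89.0 ± 18.5 CPM in WT (SD, n = 3 each) gave a level 1.55-fold lower in KO and a log2 change of -0.63 (SE 0.133, edgeR adjusted p = 0.0198, blocked 0.00199). Within K77, K79 and K80 the log2 ratio was -0.65, -0.37 and -0.85. The call was lost without KO K77 (adjusted p = 0.0627), KO K79 (0.0794) or KO K80 (0.0603). The annotated antisense gene A430018G15Rik overlaps its exons and its own row held 1 to 3 counts per library.

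Cacnb3, which encodes the beta3 subunit and was the leading beta gene, had 221, 206 and 204 CPM in KO and 245, 215 and 213 CPM in WT libraries, with overlap (-0.09, SE 0.0688, edgeR adjusted p = 0.552). Cacnb1 had 69.9, 83.6 and 82.5 CPM in KO and 73.9, 72.3 and 62.7 CPM in WT libraries, also with overlap (0.18, SE 0.0923, adjusted p = 0.355). Per kilobase, Cacnb3 made up 71.0 ± 2.45% of the class in KO and 71.4 ± 1.53% in WT libraries. Cacnb4 made up 6.57 ± 0.592% in KO and 9.69 ± 2.25% in WT libraries (SD, n = 3 each). Cacnb2 was the least abundant beta gene and overlapped between groups.

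The gamma genes include partners of AMPA receptors, called TARPs, which bring these receptors to synapses. In the fit without the block edgeR called 0 of the 7 tested members, while DESeq2 called 2 lower (limma voom 0). Of all 13835 genes tested DESeq2 called 383 lower and limma voom 363. An unadjusted edgeR p under 0.05 was seen for 3 of the 7, beside 2539 of all 13835 genes tested. Cacng2 encodes stargazin, the founding TARP, and fell in the blocked fit. It had 56.8, 55.3 and 63.9 CPM in KO libraries, against 70.9, 68.5 and 98.7 CPM in WT libraries, and the groups did not overlap. WT K80 was the highest library, as it was for Cacnb4. The blocked log2 fold change was -0.43 (SE 0.0778, edgeR adjusted p = 0.00751), and the unblocked one -0.44 (SE 0.133, adjusted p = 0.0953). Without WT K79 the unblocked adjusted p was 0.0418, and the other single libraries left out gave 0.105 to 0.292. Without WT K80 the log2 fold change was -0.25 (adjusted p = 0.166). DESeq2 gave an adjusted p of 0.0221. The annotated antisense gene A730060N03Rik shares exonic sequence with it, with the same limit as above.

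Cacng3, another TARP gene, is mentioned after its values were seen. Its level was 13.8, 14.2 and 11.2 CPM in KO and 18.0, 15.9 and 26.8 CPM in WT libraries, again without overlap and with WT K80 highest. The log2 fold change of -0.63 (SE 0.195) was not called by edgeR without the block (adjusted p = 0.0975) or with it (0.0726). Cacng4, the leading gamma gene and also a TARP gene, had 221, 226 and 248 CPM in KO and 238, 233 and 258 CPM in WT libraries. These overlapped, and the log2 fold change was -0.07 with a 95% interval from -0.22 to 0.08. Cacng7 had 118, 112 and 125 CPM in KO and 125, 118 and 120.1 CPM in WT libraries, with a log2 change of -0.03 (SE 0.062, edgeR adjusted p = 0.845). Per kilobase, Cacng4 held 46.7 ± 0.98% of the class in KO and 45.3 ± 0.499% in WT libraries, and Cacng7 held 37.7 ± 0.726% in KO and 35.7 ± 2.12% in WT. The muscle gene Cacng1 had 6, 6 and 15 counts in KO and 20, 17 and 14 counts in WT libraries and was not called. Cacng5 and Cacng8 overlapped between groups and were not called.

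Summed over each class in CPM, KO and WT libraries overlapped for both sodium channel classes, alpha2delta and gamma, and did not overlap for alpha1 and beta of the calcium channels. The alpha genes of sodium channels summed to 469, 482 and 489.6 CPM in KO libraries, against 404, 445 and 479.7 CPM in WT libraries, with overlap. The alpha1 genes of calcium channels summed to 743, 792 and 750.1 CPM in KO and 736, 703 and 723 CPM in WT libraries, without overlap. Per kilobase of exon the alpha1 sums did overlap, at 75.8, 81.2 and 76.5 CPM per kb in KO and 76.9, 73.7 and 75.8 CPM per kb in WT libraries. Alpha2delta genes summed to 217, 248 and 251 CPM in KO and 159.6, 228 and 161 CPM in WT libraries, where WT K79 exceeded KO K77. For the Cacnb genes the sums were 359, 360.1 and 362 CPM in KO and 414, 374 and 398 CPM in WT libraries, and KO lay below WT throughout. The gamma sums were 422, 421 and 462 CPM in KO and 467, 450.2 and 519 CPM in WT libraries, with overlap. These sums weight long and abundant genes most and carry no test. Per kilobase, all pore-forming genes together summed to 126 ± 3.61 CPM per kb in KO and 119.7 ± 3.63 in WT libraries (SD, n = 3 each), and all auxiliary genes to 328 ± 10.8 in KO and 337 ± 4.16 in WT.

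The authors' deposited table called 7 of the 40 genes at an adjusted p under 0.05. The share it called over all its genes was not taken here, so that count has no background beside it. Higher in that table were Scn9a (log2 fold change 0.91), Cacna2d2 (0.48) and Cacna1e (0.42). Cacnb4 (-0.64), Cacng3 (-0.63), Cacng2 (-0.44) and Cacna1g (-0.36) were lower. The headers of the authors' deposited table name its groups A and B without a genotype. Its fold changes were read as KO over WT because all 777 genes called there and by edgeR without the block had the same sign.

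Sodium channel partners, a list of genes whose products bind, anchor or turn over sodium channels, changed in a few members. Of 21 listed, 19 were tested, and without the block 2 rose, 1 fell and 16 had no call, and 3 rose and 3 fell in the blocked fit, with a median log2 fold change of -0.02. Fgf12, one of the fibroblast growth factor homologous factors that bind the tail of the alpha subunit inside the cell, fell to 14.2, 14.7 and 14.0 CPM in KO libraries, against 28.6, 22.5 and 34.1 CPM in WT libraries. Its log2 fold change was -0.99 (SE 0.15, edgeR adjusted p = 0.00348), and leaving out any 1 library kept the call. Fgf11 (-0.37) and Fgf13 (-0.40), of the same family, were called in the blocked fit only (edgeR adjusted p = 0.0123 for Fgf11 and 0.00328 for Fgf13), and were named after their values were seen. Fgf14, the other listed gene of that family, differed in the opposite direction at 0.39 (SE 0.178) and was not called (edgeR adjusted p = 0.28, blocked 0.0552). Ank3, the gene of ankyrin-G, which gathers sodium channels at the axon initial segment, rose to 378, 423 and 409 CPM in KO, against 316, 338 and 344 CPM in WT libraries (0.28, SE 0.0639, adjusted p = 0.0307, up to 0.144 without KO K79, KO K80 or WT K77). Nfasc, the gene of the adhesion molecule neurofascin at the same site, rose by 0.35 on the log2 scale (SE 0.0861, adjusted p = 0.0402), a call that held without WT K79 and was lost without each other library (up to 0.15).

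The list of calcium channel partners also holds the sodium leak channel gene Nalcn and genes of its subunits. Of 31 listed, 23 were tested, and without the block 5 rose, 1 fell and 17 had no call, and 10 rose and 1 fell with it, with a median of 0.20. Rims4, of the RIM family that links calcium channels to release sites, rose to 96.9, 114 and 97.8 CPM in KO libraries, against 26.3, 38.1 and 34.0 CPM in WT libraries. Its log2 fold change was 1.65 (SE 0.126, edgeR adjusted p = 8.69e-05), with no overlap. Nalcn, whose channel carries a resting sodium current, rose to 105, 131 and 127 CPM in KO, against 50.4, 70.2 and 57.1 CPM in WT libraries (1.03, SE 0.123, adjusted p = 0.000926). Fam155a, which encodes a subunit of the Nalcn complex, rose by 0.40 on the log2 scale (SE 0.0959, adjusted p = 0.0355). Rims1 rose by 0.51 (SE 0.122, adjusted p = 0.0352) and Dos, the row for Cbarp, whose product binds the beta subunit, by 0.30 (SE 0.0727, adjusted p = 0.036). Akap7, which anchors protein kinase A, fell, with a log2 fold change of -0.72 (SE 0.16, adjusted p = 0.0277). The calls of Rims4 and Nalcn held with any 1 library left out, and those of the other 4 were lost without at least 4 of the 6 libraries in turn.

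Among genes of calcium stores, pumps and downstream signalling, 34 were tested, and the unblocked fit called 3 higher and 0 lower. An unadjusted edgeR p under 0.05 was seen for 8 of these 34, beside 2539 of all 13835 genes tested. DESeq2 and limma voom each called 0 lower. The blocked fit called 3 higher and 2 lower. Camk2a, a calcium-dependent kinase gene, rose to 104, 139.7 and 118 CPM in KO libraries, against 42.9, 71.6 and 36.6 CPM in WT libraries (1.26, SE 0.212, edgeR adjusted p = 0.00617). Ryr3, a calcium release channel gene, rose by 0.81 (SE 0.128, adjusted p = 0.00441), and Atp2b1, which encodes a plasma membrane calcium pump, by 0.41 (SE 0.0643, adjusted p = 0.00432). All 3 calls held with any 1 library left out. The shares called in the 3 lists were 15.8, 26.1 and 8.82% in the order given, beside 6.27% of all tested genes. In the blocked fit they were 31.6, 47.8 and 14.7%, beside 10.6%. The lists were chosen with earlier results of these data known, so the shares describe the lists and test nothing.

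Markers of other cells in the sort were read beside these results. Their lists are short, and over all tested genes edgeR called 6.27% without the block and 10.6% with it. The interneuron lineage genes Lhx6, Dlx1 and Sst had 4653 to 14327 counts in every library, and their list of 9 summed to 5167 to 6048 CPM in KO and 4546 to 5147 CPM in WT libraries. Of that list Nkx2-1 and Gad2 rose and Dlx5 fell, and the blocked fit also called Lhx8 higher (edgeR adjusted p = 0.0098). Oligodendrocyte precursor markers fell in 5 of 6 members without the block and in 6 with it, and the list summed to 50.9 to 59.3 CPM in KO and 126 to 148 CPM in WT libraries. Dividing cell markers fell in 2 of 10 members without the block and in 6 with it, with 0 higher in either, and summed to 990.1 to 1276 CPM in KO and 1278 to 1742 CPM in WT libraries. Neuronal markers had 1 member higher and 1 lower of 15 without the block, and 2 higher and 2 lower with it, and summed to 10042 to 10653 CPM in KO and 10122 to 11947 CPM in WT libraries. Radial glia markers had 2 of 10 higher and 0 lower by edgeR without the block. An unadjusted edgeR p under 0.05 was seen for 5 of the 10, beside 2539 of all 13835 genes tested. These markers had 3 higher and 1 lower with the block and by DESeq2, and 2 higher and 1 lower by limma voom. Of all 13835 genes tested DESeq2 called 546 higher and 383 lower, and limma voom 509 higher and 363 lower. The radial glia markers summed to 1282 to 1436 CPM in KO and 1266 to 1431 CPM in WT libraries. Cortical glutamatergic markers summed to 271 to 346 CPM in KO and 238 to 518 CPM in WT libraries. This list and the endothelial and pericyte, microglial, erythroid and muscle lists gave 0 edgeR calls without the block. In all 1 of their members had an unadjusted p under 0.05, and DESeq2 called 0, as did limma voom. With the block, 1 endothelial and pericyte gene, Col1a2, was higher (edgeR adjusted p = 0.0221) and 1 erythroid gene, Hbb-y, was lower (0.0217). The part of any of these markers in the channel differences was not tested.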

How the data were processed

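The authors deposited raw read counts per gene for each library and a joined table with the same counts in all 36291 gene rows. Tools listed in the submitters' processing notes, with no role or order, are HTSeq 0.5.3p3, TopHat 1.2.0 and DESeq 1.2.2, on build mm9. Per the labels' protocols, poly-A RNA from 100 ng of total RNA went through 15 cycles of PCR and was sequenced by a 36-cycle single-read protocol. The authors' deposited table holds the ratio of the group means, the log2 of that ratio, and p-values raw and adjusted, per the file headers.

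Counts that named no gene stayed out (19.75 to 21.77% of a library assigned to none and 1.94 to 1.99% ambiguous). Genes were tested in R 4.3.3 with edgeR 4.0.16 (TMM, filterByExpr with a minimum count of 10, quasi-likelihood test, Benjamini-Hochberg over 13835 genes, threshold 0.05). The SE is the log2 fold change over the square root of F. The common biological coefficient of variation was 9.26%. CPM use TMM-scaled totals. Exon lengths are the union of GENCODE M21 basic exons (GRCm38) for all 40 genes. Listed symbols with no row were matched by a RefSeq synonym in 5 cases. The scripts were tested on simulated data.

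Deviations from group means correlated at 0.274 (K77), 0.216 (K79) and 0.196 (K80) between same-numbered libraries, above the limit of 0.1. The number was therefore also fitted as a block. The labels do not say that it pairs libraries, so the fit without the block stayed the main one. Members, lists and markers were chosen with earlier results of these data known. Named in full were genes called in either fit and the 3 most abundant of each class by mean CPM. Other members with values were picked after these values were seen. Alternatives were RLE factors, DESeq2 1.42.0, limma 3.58.1 voom, other filters, the block, libraries left out, and an adjusted p threshold of 0.1. Some members are not reported here by name, but count in totals. Sequence reads were not analysed here.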

Additional observations from a re-analysis of the deposited data

How the results depend on the processing

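With the K number as a replicate block, 848 genes were called higher and 615 lower, against 504 and 363 without it, and with no filter on low counts 546 were lower. Across single libraries left out, the ranges were 270 to 645 higher and 175 to 399 lower. Alpha sodium channel calls ranged from 0 to 1 higher (Scn9a), and were 0 without both K79 libraries. Alpha1 calcium channel calls ranged from 0 to 1 in each direction, and 2 were higher with the block or with no filter. Auxiliary calcium channel calls ranged from 0 to 1 higher and 0 to 3 lower. The block gave 2 higher and 2 lower, no filter 1 higher and 3 lower, DESeq2 3 lower, and leaving out both K79 libraries 1 higher. Of the 13835 genes tested in the main fit DESeq2 called 546 higher and 383 lower. Sodium partner calls ranged from 0 to 2 higher and 1 to 2 lower, with 3 lower under the block or no filter, 2 lower by DESeq2, and 1 higher and 2 lower without both K79 libraries. Calcium partner calls ranged from 2 to 5 higher and 0 to 1 lower, with 10 higher under the block and 2 without both K79 libraries. Store and pump calls were 2 lower with the block and 1 with no filter. Signs turned in 4 uncalled genes with 1 library left out, where log2 fold changes ranged from -0.089 to 0.44 (Cacna2d1), -0.076 to 0.0031 (Cacng7), -0.046 to 0.17 (Scn2a1) and -0.18 to 0.028 (Scn3b). The cause of these changes was not tested. Of 294 results for the 21 named genes under alternatives, 265 kept their sign and side of the threshold, 13 gained a call and 12 lost one. All the losses fell on the 4 genes called without the block. In 13 other fits Scn9a kept its call in 10, Cacna1e in 9, Cacna1g in 11 and Cacnb4 in 10. The gains include Cacna1c and Cacng2 at a looser adjusted p threshold of 0.1. Zeb2 kept its call under each alternative. At this depth Scn11a and Cacng1, which had few counts, had the widest intervals.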
